A study of Mus musculus with 6 samples.

Results

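Intermediate filaments give cells and axons their mechanical strength, and 7 genes of this family were followed in labelled cells sorted from embryonic mouse dorsal root ganglia. They were the neurofilament genes Nefl, Nefm and Nefh, the α-internexin gene Ina, the peripherin gene Prph, the nestin gene Nes and the vimentin gene Vim. The members were taken by symbol from their Ensembl identifiers, and all 7 were found among the 41388 genes listed in each library. Neurofilaments are copolymers in which the light subunit forms the core and the medium and heavy subunits carry long phosphorylated tails that space the filaments. They are known as markers of large myelinated sensory neurons, whereas peripherin is typical of small unmyelinated ones. Vimentin is widely made by glia, mesenchymal cells and immature neurons, and nestin by neural progenitors.

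The cells were EGFP-positive cells from 3 female and 3 male libraries of C57BL/6 embryos at 18.5 days post coitum, from ganglia at levels T11 to S1. Every embryo carried RetFloxedEGFP, which turns on EGFP in Ret cells after Cre recombination, and a Cre driven from the Scn10a (Nav1.8) locus, named as Scn10a<tm2(cre)Jnw>. The genotype label of male C names only RetFloxedEGFP, while its title names the same cross. The 3 female libraries and male A drew on 2 embryos apiece (40 ganglia). Male B drew on 3 (60 ganglia) and male C on a single embryo (20 ganglia). Only cells that had used the Scn10a locus could carry the label, and the number of altered Ret copies is not stated. The p-values below measure the spread between these libraries.

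Depth ranged from 15693013 counted reads in male C to 24033601 in female B. Female A, at 15807666, was nearly as shallow as male C, and the other libraries had 22375570 or more. The genes that define the sort were present in every library, Scn10a at 119 ± 16.8 RPKM and Ret at 27.8 ± 3.83 RPKM (SD, n = 6). RPKM, the read count scaled to gene length and library size, was used whenever genes were compared with each other. The first principal component of log2 CPM (counts scaled to library size), with 37.3% of the variance, placed female C at 36.8 and male B at 42.6, against -34.8 to -0.947 for the other 4 libraries. The second, with 30.0%, set male C at -59.8 against 8.60 to 14.7 for the others. Results that rest on these 3 libraries are given with that in view. In sorted bulk RNA, fewer cells of a type and less RNA per cell cannot be told apart.

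The light neurofilament gene and peripherin led the family, and nestin was lowest but had reads in every library. Nefl (ENSMUSG00000022055, chromosome 14, 68083863 to 68089095, GRCm38.p2) stood at 602, 814 and 636 RPKM in female A, B and C, and at 936, 663 and 483 RPKM in male A, B and C. Male A was highest and male C lowest, a span of 1.94-fold, and the female libraries lay inside the male range. With a mean of 689 ± 161 RPKM (SD, n = 6) Nefl ranked number 45 among all listed genes and took 0.233 ± 0.0550% of counted reads.

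The medium subunit gene Nefm (ENSMUSG00000022054, chromosome 14, 68082590 to 68124846) stood at 52.9, 92.5 and 105 RPKM in female A, B and C, and at 80.1, 113 and 32.4 RPKM in male A, B and C. Male C was lowest and female A next. The span of 3.50-fold was the widest of the 7 members. It rests on male C, without which Nefm ran from 52.9 to 113 RPKM and Nes, at 3.13-fold, had the widest span.

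The heavy subunit gene Nefh (ENSMUSG00000020396, chromosome 11, 4938754 to 4948064) stood at 17.7, 27.2 and 25.6 RPKM in female A, B and C, and at 31.6, 30.3 and 17.5 RPKM in male A, B and C. Female A and male C were the low libraries, as for Nefm. Nefh appears late in the maturation of large axons.

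Ina (ENSMUSG00000034336, chromosome 19, 47014698 to 47025327) encodes α-internexin, a subunit that can join neurofilaments and is prominent in developing axons. It stood at 64.9, 79.5 and 89.8 RPKM in female A, B and C, and at 78.0, 93.1 and 69.1 RPKM in male A, B and C. Its span of 1.44-fold was the narrowest of the members.

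Prph (ENSMUSG00000023484, chromosome 15, 99055174 to 99058978) encodes the filament protein of peripheral axons. It stood at 384, 399 and 536 RPKM in female A, B and C, and at 469, 562 and 470.2 RPKM in male A, B and C. Its mean of 470.1 ± 71.1 RPKM (SD, n = 6) ranked number 76. Female C and male B were highest, and the span of 1.46-fold was narrow.

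Vim (ENSMUSG00000026728, chromosome 2, 13573927 to 13582826) followed Nefl and Prph in level, at 196 ± 76.0 RPKM (SD, n = 6). It stood at 135, 149 and 297 RPKM in female A, B and C, and at 149, 291 and 157 RPKM in male A, B and C. Female C and male B lay far above the other 4 libraries, which stayed between 135 and 157 RPKM.

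Nes (ENSMUSG00000004891, chromosome 3, 87971078 to 87980451) stood at 0.206, 0.178 and 0.543 RPKM in female A, B and C, and at 0.256, 0.559 and 0.388 RPKM in male A, B and C. These levels rest on 21, 28 and 83 reads in the female libraries and 36, 86 and 37 reads in the male libraries. Its mean of 0.355 ± 0.168 RPKM (SD, n = 6) lay above 43.8% of the 25803 genes with a read in any library, against 91.2% for Nefh, the next member up.

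**Figure D1:**
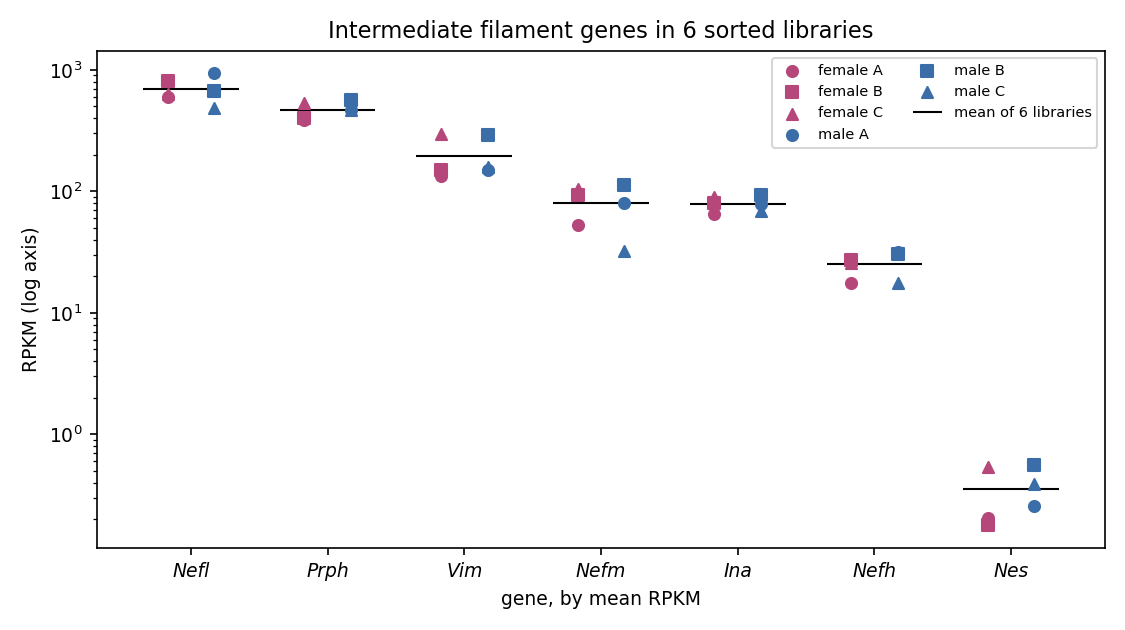
RPKM on a log axis for the 7 genes, in order of mean level. Each point is 1 library, female on the left and male on the right of each column, the shape gives the letter and the black line the mean of the 6 libraries. Nefl and Prph lie highest with means of 689 and 470.1 RPKM, and Nes lies lowest at 0.355 RPKM.

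The order of levels was nearly the same in every library. Of the 21 pairs of members, 20 kept their order in 6 of 6 libraries, and the exception was Nefm and Ina. Nefm lay above Ina in 4 of 6 libraries, with a mean log2 difference of -0.10 ± 0.53 (SD, n = 6), so these neighbours did not differ beyond their spread. Nefl and Prph, the top pair, differed by 0.53 ± 0.42 log2 RPKM, which was less than 2 SD although Nefl was higher in 6 of 6 libraries. In male C the ratio Nefl/Prph was 1.03, and in female B it was 2.04. The other neighbouring pairs in the order lay more than 2 SD apart, namely Prph over Vim by 1.33 ± 0.34, Vim over Nefm by 1.34 ± 0.55, Ina over Nefh by 1.68 ± 0.25 and Nefh over Nes by 5.83 ± 0.60 log2 RPKM. These are descriptions of level at the deposited lengths, with no test. With a shorter Nefm length, tried below, Vim did not lie above Nefm in every library.

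As shares of the RPKM summed over the family, Nefl made 44.7 ± 7.38%, Prph 30.8 ± 4.47% and Vim 12.6 ± 3.74% (SD, n = 6). Ina made 5.16 ± 0.383%, Nefm 5.01 ± 1.48%, Nefh 1.61 ± 0.175% and Nes 0.0230 ± 0.00981%. The heavy and light subunit transcripts kept a fairly steady proportion, with Nefl/Nefh between 21.9 in male B and 33.9 in female A. Nefl/Nefm was less steady, between 5.86 in male B and 14.9 in male C.

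The lengths used for Nefl and Nefm need care, because the deposited gene models of the pair overlap on opposite strands. The 3' block of Nefm spans 2381 bases and lies across the start of Nefl, whereas the next Nefm block begins 32.1 kb from that start. Nefl and Nefm share 1108 exon bases, from 68083863 to 68084970, which is 32.8% of the Nefl exons and 19.2% of the Nefm exons. The sources used here do not give whether strand was used, or what was done with reads that match both genes. GENCODE M21 annotates the shared block of Nefm only in the transcript Nefm-202, of 3680 bases. The other annotated Nefm transcript, Nefm-201, of 3334 bases, ends upstream of it. The deposited Nefm length of 5782 bases joins both, and is longer than either.

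Levels of this pair moved with the length. With all reads of a gene divided by only those exon bases that no other gene shares, as if reads on shared bases had gone uncounted, Nefl was at 1025 ± 239.7 RPKM and Nefm at 98.2 ± 38.7 RPKM (SD, n = 6). With the Nefm-201 length Nefm was at 138 ± 54.3 RPKM, above Ina in 5 of 6 libraries. It then also lay above Vim in female B, and 19 pairs of members kept their order. These lengths were tried after the overlap was seen. Ina shares 456 exon bases, 14.1% of its length, with Nt5c2 on the opposite strand. Divided by its unshared bases only, Ina was at 92.0 ± 12.9 RPKM, against 79.1 ± 11.1 RPKM at the deposited length (SD, n = 6). The other 4 members share none with any listed gene. For Vim, the longest GENCODE M21 transcript, of 2926 bases, exceeds the deposited 2335 bases and puts its mean at 156.5 RPKM. Differences between libraries for 1 gene do not depend on its length.

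**Figure D2:**
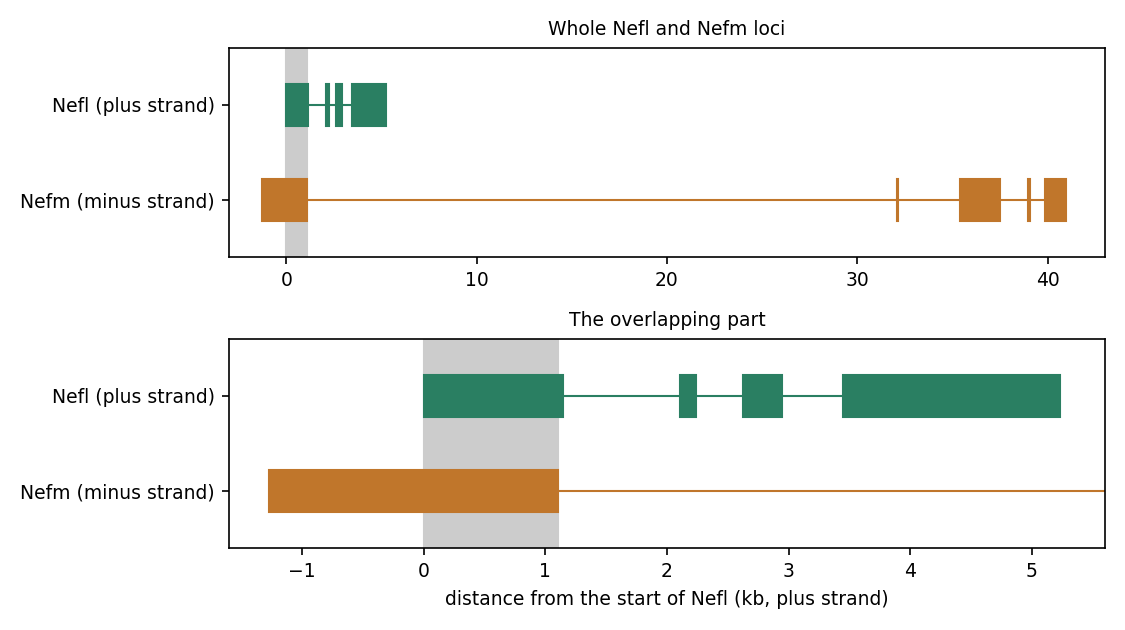
Deposited exon blocks of Nefl (upper row) and Nefm (lower row) against the distance in kb from the start of Nefl, for the whole region and for the overlapping part. Boxes are exon blocks, lines join blocks of 1 gene, and the grey band is the stretch of 1108 exon bases that both genes hold.

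RefSeq promoter windows (GRCm38.p6, 250 bases before to 50 after the start) were available for 4 members, and none for Nefl, Nefm or Nefh. The windows are shown because these 4 genes differ widely in level. Prph and Vim followed Nefl in level, Ina was in the middle and Nes was lowest. The capitals mark TATAAA, the core of the TATA box.
Prph promoter, chr15:99054924-99055223, plus strand: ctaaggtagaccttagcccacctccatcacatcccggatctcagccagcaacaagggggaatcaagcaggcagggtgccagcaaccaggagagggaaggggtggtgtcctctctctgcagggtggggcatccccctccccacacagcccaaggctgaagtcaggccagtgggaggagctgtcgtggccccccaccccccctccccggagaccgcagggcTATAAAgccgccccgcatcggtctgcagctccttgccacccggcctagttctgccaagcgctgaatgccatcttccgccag
Vim promoter, chr2:13574061-13574360, plus strand: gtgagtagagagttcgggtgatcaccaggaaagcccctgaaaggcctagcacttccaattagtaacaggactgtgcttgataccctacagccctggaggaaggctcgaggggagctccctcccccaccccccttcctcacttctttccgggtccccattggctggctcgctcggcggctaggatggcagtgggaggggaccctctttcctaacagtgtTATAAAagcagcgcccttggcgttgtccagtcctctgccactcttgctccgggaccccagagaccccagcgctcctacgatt
Ina promoter, chr19:47014431-47014730, plus strand: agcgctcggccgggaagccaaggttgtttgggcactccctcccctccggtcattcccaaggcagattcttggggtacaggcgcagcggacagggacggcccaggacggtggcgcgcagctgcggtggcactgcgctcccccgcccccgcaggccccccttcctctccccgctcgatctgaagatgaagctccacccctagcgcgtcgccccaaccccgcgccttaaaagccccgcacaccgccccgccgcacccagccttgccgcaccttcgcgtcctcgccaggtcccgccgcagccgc
Nes promoter, chr3:87970843-87971142, plus strand: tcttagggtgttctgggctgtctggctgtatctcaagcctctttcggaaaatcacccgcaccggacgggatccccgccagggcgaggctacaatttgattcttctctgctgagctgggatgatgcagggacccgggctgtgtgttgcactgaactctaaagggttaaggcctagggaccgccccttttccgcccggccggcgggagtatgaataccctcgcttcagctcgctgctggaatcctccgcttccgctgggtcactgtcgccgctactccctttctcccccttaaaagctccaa
TATAAA, searched on both strands, occurred in the Prph and Vim windows, with its first base 31 and 32 bases before the start. It was not found in those of Ina and Nes, and 13.6% of 32817 RefSeq promoter windows of 300 bases hold it. The GC box letters GGGCGG, on either strand, had 1 match in the Prph window, 2 in that of Ina, 2 in that of Nes and 0 in that of Vim, against 35.6% of all windows with a match. The AP-1 letters TGANTCA matched none of the 4 windows and 7.81% of all windows. A match is a description of the letters and not of binding, and a link of these letters with level was not tested.

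The members fell into different patterns across libraries. The SD over the 6 libraries of log2 CPM was 0.69 for Nefm, 0.68 for Nes, 0.52 for Vim, 0.37 for Nefh and 0.34 for Nefl. It was 0.22 for Prph and 0.20 for Ina. Among tested genes within 1 log2 unit of the same mean, the SD of Nefm lay above 99.5% of 761 genes and that of Vim above 98.2% of 739 genes. Prph lay above 56.8% and Ina above 47.8% of such genes, near the middle. Without male C the SD of Nefm was 0.43.

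**Figure D3:**
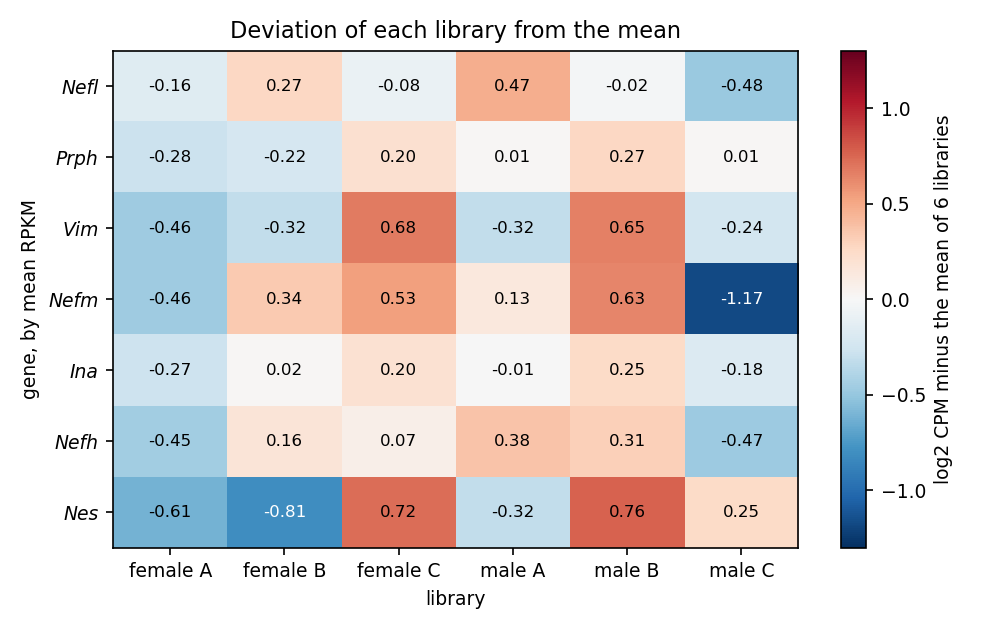
Deviation of each library from the mean of the 6 libraries in log2 CPM, by gene (rows, in order of mean RPKM) and library (columns), with the value printed in each cell. Vim and Nes are raised in female C and male B, by 0.65 to 0.76 log2 units, and Nefm is lowest in male C, at -1.17.

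Nefm and Nefh were low in the single-embryo library male C, where several markers of large-diameter neurons were low as well. In male C, Nefm lay at -1.17 and Nefh at -0.47 log2 CPM from the mean of the libraries, and Nefl at -0.48, whereas Prph lay at 0.01. The 10 markers of large-diameter neurons had a median of -0.56 in male C and between -0.00096 and 0.30 in the other libraries. The list was chosen with earlier results of these data known, so its low median in male C is a description and not separate evidence. Their summed RPKM was 60.6 to 75.4 in the female libraries and 56.5 to 74.5 in the male libraries, with male C lowest, and each of the 10 had a read in every library. Etv1, the most abundant of them, was not low in male C, at 38.9 RPKM against 27.7 to 39.7 RPKM in the others. The calcium buffer gene Pvalb stood at 0.840 RPKM in male C, against 4.55 to 11.3 RPKM in the others. Calb1, another calcium buffer gene, named after its values were seen, stood at 0.972 RPKM in male C, against 3.82 to 5.72 RPKM. Ntrk3, Runx3, Cntnap2 and Fam19a1 were also lowest in male C. Ntrk2 at 2.45 RPKM, Spp1 at 0.939 RPKM and Necab2 at 3.24 RPKM in male C lay within the range of the others. Ntrk2, Ntrk3, Necab2 and Fam19a1 were named after their values were seen too. The 10 nociceptor and sort markers had a median of 0.24 in male C. Female A was low in Nefm, at -0.46, and in Nefh, at -0.45, with a list median of 0.04. The markers were mixed there, with Pvalb at 11.3 RPKM the highest of the 6 libraries, and the receptor gene Ntrk2 at 1.80 RPKM and Necab2 at 2.46 RPKM the lowest. Male C and female A were also the libraries of least depth. The part of the large-diameter markers, or of depth, in the Nefm level was not tested.

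Vim and Nes were high in female C and male B, the libraries that the first component set apart. Vim lay at 0.68 in female C and 0.65 in male B, and Nes at 0.72 and 0.76 log2 CPM from the mean. Nefm was also high there, at 0.53 and 0.63. Nefh lay at 0.07 and 0.31, and Prph and Ina were up to 0.27 above their means, while Nefl lay at -0.08 and -0.02. Summed over the list, the 10 satellite glia and Schwann cell markers gave 673 to 751 RPKM in the female and 699 to 753 RPKM in the male libraries. Female C and male B were the highest of these by a small margin. The list median was 0.16 in female C and 0.21 log2 units in male B, against -0.30 to 0.014 in the other libraries. Single glial genes went different ways. The lipoprotein gene Apoe stood at 263 RPKM in female C and 268 RPKM in male B, against 108 to 155 RPKM in the others. Fabp7, a fatty acid binding protein gene of immature glia, stood at 252 RPKM in female C and 241 RPKM in male B, below the 306 to 371 RPKM of the others. The 7 fibroblast and meningeal markers summed to 152 to 175 RPKM in the female and 149.7 to 171 RPKM in the male libraries, and Twist1 had no read in female B and male C. Their sum was carried by the matrix gene Dcn, at 126 RPKM in female C and 113 RPKM in male B, against 128 to 149.7 RPKM in the others. The collagen gene Col1a1 was highest in these libraries, at 13.0 RPKM in female C and 22.9 RPKM in male B, against 4.56 to 8.70 RPKM, and the median of the 6 tested genes of the list was 0.16 in female C and 0.61 log2 units in male B, against -0.40 to 0.027 in the others. The astrocytic filament gene Gfap had 0 to 24 reads per library. Without female C and male B the mean of Vim was 147 RPKM and that of Nes 0.257 RPKM, and 20 of 21 pairs still kept their order. The part of these markers in the Vim level was not tested.

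Part of the axotomy and dissociation response list was high in the same libraries as Vim. Its 7 tested genes had a median of 1.07 in female C and 0.92 in male B, against -1.35 to 0.25 log2 units in the other libraries. The genes Atf3, Jun, Egr1 and Sox11 were named after their values were seen. Atf3, induced in injured sensory neurons, stood at 5.46, 5.07 and 21.4 RPKM in female A, B and C, and at 1.91, 30.5 and 4.14 RPKM in male A, B and C. Jun, its partner in the AP-1 family, stood at 12.6, 16.3 and 66.1 RPKM in the female and at 8.64, 60.4 and 16.5 RPKM in the male libraries. Fos was high in male C too, at 205 RPKM, where Vim was not. Egr1 stood at 27.9 RPKM in female C and 25.1 RPKM in male B, against 4.08 to 15.8 RPKM in the others. The other tested genes of the list did not share this pattern. The growth cone gene Gap43 stood at 1360.4 RPKM in female C and 1352 RPKM in male B, within the 1158 to 1464 RPKM of the others. The neuropeptide gene Gal, at 307 and 301 RPKM, also lay within the others' 276 to 402 RPKM. The transcription factor gene Sox11 was lowest in these libraries, at 56.4 RPKM in female C and 59.0 RPKM in male B, against 65.9 to 80.5 RPKM. Sprr1a, another injury gene, had no read in any library, which allows up to 0.191 CPM in the shallowest. The part of these genes in the Vim and Nes levels was not tested.

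**Figure D4:**
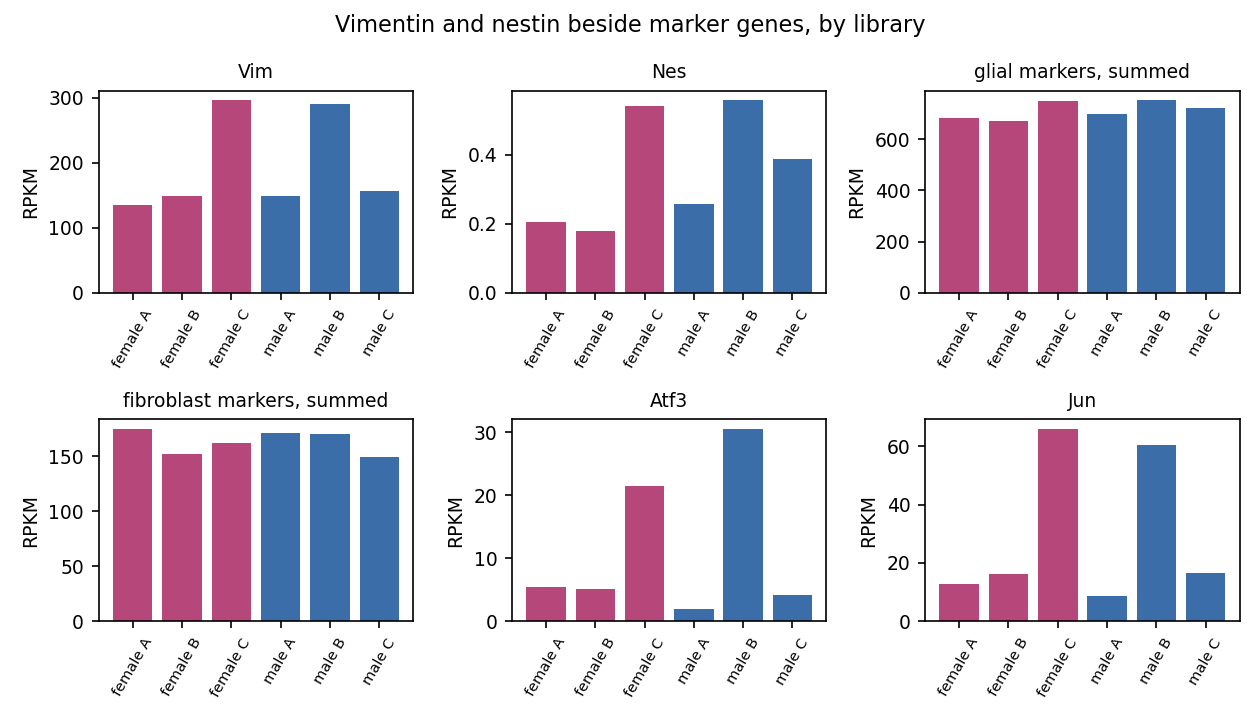
RPKM by library (bars from 0, female then male) for Vim and Nes, for the summed satellite glia and Schwann cell markers, for the summed fibroblast and meningeal markers, and for Atf3 and Jun. Vim, Nes, Atf3 and Jun are highest in female C and male B. The marker sums lie within 673 to 753 and 149.7 to 175 RPKM and are carried by Fabp7 and Dcn, which are lowest in these libraries, while the list medians are highest there (0.16 and 0.21 log2 units for glia, 0.16 and 0.61 for fibroblasts).

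Sex was the only labelled condition with replicates, and no member passed the test. With edgeR's quasi-likelihood test 0 of 7 members passed an adjusted p of 0.05, where 0.0333% of the 15026 tested genes passed. At an unadjusted p under 0.05 there were also 0 members, where 1.10% of all genes passed, and DESeq2 and limma-voom called 0 members, where they called 0.0466% and 0.0399% of all genes. No member was called without the filter (0.0465% of genes called), with 1 CPM in 3 libraries as the filter (0.0373%) or without female C and male B (0.0478%). None was called with 1 library left out, where 0.0325%, 0.0327% and 0.0327% of genes were called without female A, B and C, and 0.0323%, 0.0327% and 0.0324% without male A, B and C. The female and male ranges overlapped for each of the 7 genes, and they did not overlap for 5.70% of all tested genes.

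Nefl averaged 684 ± 114 RPKM in female and 694 ± 228 RPKM in male libraries (SD, n = 3 each), and its log2 ratio of female to male was -0.02 (standard error 0.24, edgeR adjusted p = 0.9997). Its 95% interval ran from -0.55 to 0.51. Prph, the member of smallest p, averaged 439.8 ± 84.0 RPKM in female and 500.5 ± 53.1 RPKM in male libraries. Its log2 fold change was -0.19 with an interval from -0.58 to 0.21. Vim was at -0.04, from -0.79 to 0.71, and Ina at -0.04, from -0.44 to 0.37. Nefm was at 0.15, from -0.73 to 1.03, and Nefh at -0.17, from -0.72 to 0.39. Nes was least precise, at -0.37 with an interval from -1.44 to 0.71. A difference of 2-fold between sexes, in either direction, therefore lies outside the intervals of Nefl, Prph, Vim, Ina and Nefh. The interval of Nefm holds a 2-fold difference only with females higher, and that of Nes only with males higher. Male C, the library from 1 embryo, carries labels in another form than the rest. Without it Nefm was at -0.21 and Nefl at -0.22, with 0 members called. Nes moved most, to -1.07 without female C and -0.04 without male B.

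**Figure D5:**
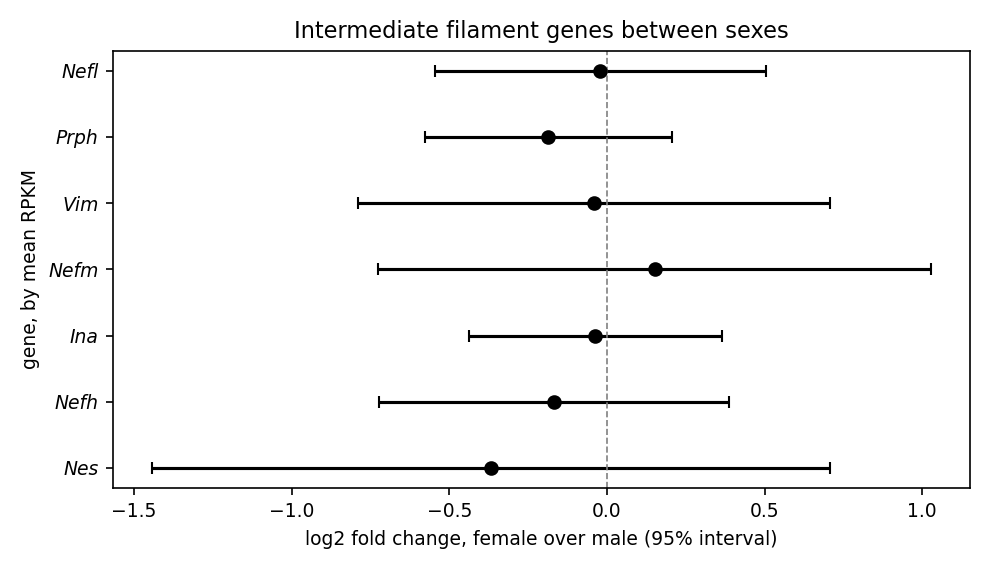
Log2 fold change, female over male, from edgeR for each gene (points) with its 95% interval (bars). Each interval includes 0, and Nes and Nefm have the widest.

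Other intermediate filament genes were lower than each member but Nes. Of 18 listed, 11 averaged under 1 RPKM. The nuclear lamin gene Lmna was highest at 15.2 ± 5.14 RPKM, followed by the synemin gene Synm at 9.07 ± 1.28 RPKM and the keratin gene Krt10 at 7.52 ± 0.442 RPKM (SD, n = 6). Lmna was also highest in female C and male B, at 19.8 and 23.2 RPKM, against 10.7 to 14.7 RPKM in the other libraries. The epithelial keratin gene Krt5 had no read in any library. Of the 10 genes tested 0 passed the test between sexes in either direction, beside 0.0333% of all tested genes. At an unadjusted p under 0.05 there were also 0, beside 1.10%. The median log2 fold change of the 10 was -0.04, beside -0.0050 over all tested genes. The smallest p was that of the lamin gene Lmnb1, at 1.36, 1.20 and 1.18 RPKM in female A, B and C, and at 0.956, 1.07 and 0.908 RPKM in male A, B and C.

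Carriers and modifiers of filaments covered a wide range of levels. Kif5a, the motor that moves neurofilaments along axons, was at 209.5 ± 26.7 RPKM and its relative Kif5c at 58.5 ± 12.3 RPKM (SD, n = 6). The ubiquitin ligase gene Trim32 was at 45.0 ± 4.41 RPKM, and the desmosomal linker gene Dsp at 0.00516 ± 0.00765 RPKM. The cytolinker gene Plec, named after its values were seen, was at 8.30, 12.8 and 21.7 RPKM in female A, B and C, and at 11.6, 24.1 and 19.5 RPKM in male A, B and C. Among enzymes that act on neurofilament tails, the kinase genes Mapk3 and Gsk3b were at 214 ± 46.3 and 173 ± 33.2 RPKM, and the phosphatase subunit gene Ppp2r2b at 91.5 ± 3.64 RPKM (SD, n = 6). Between sexes 0 of 12 tested genes of the first list and 0 of 15 of the second passed the edgeR test. Over all tested genes 0.0333% passed. At an unadjusted p under 0.05 there were 0 of each list, where 1.10% of all tested genes passed. Their median log2 fold changes were 0.0024 and -0.05. Mapk3 had the smallest p, with 188 ± 24.9 RPKM in female and 239 ± 53.3 RPKM in male libraries (SD, n = 3 each).

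Genes whose log2 CPM followed each member most closely over the 6 libraries were found among genes with a mean of 10 CPM or more. There were 8761 candidates (8762 for Nes), and the values of Pearson's r are descriptions over 6 points with no test. The closest to Nefl were Cmas at r = 0.996 and Zbtb4 at 0.991, to Nefm Ptpn1 at 0.993 and Snx3 at 0.992, and to Nefh Epb41l3 at 0.996 and Vps26b at 0.995. The closest to Ina were Cmip at 0.996 and Snph at 0.995, and to Prph Dusp23 and 1810043G02Rik at 0.997 each. The closest to Nes were Ubac2 at 0.997 and Pex16 at 0.993, and to Vim Ppm1g and Sin3b at 0.997 each. The number of genes with r over 0.95 was 309 for Vim and 167 for Nes, and 23 for Nefh, the fewest.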

How the data were processed

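The authors deposited, for each of the 6 libraries, whole-number read counts per gene, with CPM and RPKM values. The submitters' processing notes name featureCounts 1.4.5, Subread and GRCm38.p2, and the labels' protocols give SMARTer amplification of the RNA. Annotation, strand setting and the treatment of multimapping reads are not given. The deposited CPM is the count scaled to the library total, and the deposited RPKM is that CPM divided by gene length in kb; both were recomputed from the counts and matched. The levels printed were recomputed from the counts with TMM factors. Symbols came from GENCODE M21 and matched 97.3% of 41388 identifiers.

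Sex was tested on the whole table with edgeR 4.0.16 in R 4.3.3 (quasi-likelihood, TMM, filterByExpr defaults, female over male, Benjamini-Hochberg at 0.05), two-sided. Standard errors are the log2 fold change over the root of F. DESeq2 1.42.0 and limma-voom (limma 3.58.1) were alternatives. The fit was tested on simulated data. Log2 CPM used a prior count of 2, and pairs of members were compared on log2(RPKM + 0.1). Named genes of each other list are the 3 highest, the lowest and that of smallest p, and a selection is printed. Eppk1 was listed and not matched, and 1 named gene is not reported here. The members and lists were chosen with earlier results of these data known.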

Additional observations from a re-analysis of the deposited data

Results flagged for a closer look

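Over the 6 libraries taken as 1 group, 9 of 58 named genes had a library whose gap to its nearest neighbour was large for the range. No member of the family was among the 9. The nominal rate of this rule is about 1 in 20 groups. The share of all tested genes that it flags was not computed, so the count is not read as an excess. Female A stood above the others for Cdh19 (7.77 RPKM), Top2a (5.28 RPKM), Ccnb1 (1.78 RPKM), Mki67 (0.850 RPKM) and Dsp (0.0196 RPKM). Dsp had only 0 to 3 reads per library. Male C stood above the others for Gsk3b (237 RPKM), P2rx3 (171 RPKM) and Acta2 (1.81 RPKM). Female C alone had reads of Myog (0.140 RPKM, from 5 reads).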

How the results depend on the processing

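No alternative called a member between sexes, and 20 of 21 pairs of members kept their order, except with CPM, the longest transcript or the Nefm-201 length, where 19 did. The sign of folds near 0 was not stable. Nefl turned to 0.021 with the letter as a replicate block and to 0.016 with limma-voom, and Vim to 0.0095 with embryos per pool as a covariate. With each library left out in turn, log2 fold changes ran from -0.22 to 0.25 for Nefl, -0.21 to 0.57 for Nefm, -0.39 to -0.0038 for Nefh, -0.15 to 0.087 for Ina, -0.36 to -0.09 for Prph, -1.07 (without female C) to -0.04 (without male B) for Nes and -0.49 to 0.34 for Vim, and the SD of Nefm between libraries from 0.43 (without male C) to 0.77. With the longest transcript Nefm averaged 124.7 RPKM and Vim 156.5 RPKM. Same-letter deviations correlated at 0.28, -0.29 and -0.08 over genes, while those of female C and male B, of different letters, correlated at 0.55. With 1 pair of libraries per letter, these values cannot settle whether the letters mark pairs. The replicate block called 5 genes, as many as the fit without it. Without filtering 12 genes were called in place of 5, none of them members. Leaving out female C and male B, an alternative added after the data were seen, called 0 members. Nes is the only member with few reads, at 21 to 86. Female A and male C, the shallowest libraries, were also the lowest for Nefl, Nefm, Nefh and Ina. The part of depth in these levels was not tested.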

Other observations

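Markers of further cell types were low as lists. The 7 progenitor and cycling cell markers summed to 8.27 to 11.5 RPKM in the female and 7.41 to 10.9 RPKM in the male libraries, led by the topoisomerase gene Top2a at 3.43 ± 0.944 RPKM and the progenitor factor gene Sox2 at 2.93 ± 0.991 RPKM (SD, n = 6). Sox2 stood at 2.30, 2.56 and 4.14 RPKM in female A, B and C, and at 1.78, 4.16 and 2.65 RPKM in male A, B and C. The 7 endothelial and pericyte markers summed to 13.9 to 17.4 RPKM in the female and 13.5 to 18.7 RPKM in the male libraries, most of it from Rgs5 at 9.87 ± 2.01 RPKM, and Cldn5 had no read in male A. The muscle filament gene Des had 0 to 7 reads per library.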
